A study of Mus musculus with 4 samples.

Results

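SOX4, SOX11 and SOX12 form the SoxC group of SOX transcription factors, and SOX5, SOX6 and SOX13 form the SoxD group. Their 6 genes, of 21887 protein-coding genes in the annotation, were examined for FOXL2 binding in the fetal ovary of the mouse. The genes were picked by family membership and for FOXL2 peaks lying away from gene ends in these same data, so the counts below are descriptions and none was tested. Peaks were taken when their centre lay inside a gene or within 100 kb of either end. The study compared FOXL2 ChIP with input chromatin in XX gonads of CD1 embryos at stage E14.5, with 2 samples of each kind and 1 deposited peak list for both ChIP samples. Each ChIP used a separate pool of 80 to 100 ovaries, cut free of the mesonephros, 20 to 30 µg of chromatin and 4 µg of antibody. Whole ovaries hold germ cells, stroma and vessels besides the FOXL2-producing supporting cells, and pools mix embryos. The list gives 11438 positions of 300 bp with no height, score or value per pool, so read depth is unknown, no peak has a replicate error, and a gap may hold binding under the authors' threshold.

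SOX proteins bind the minor groove of DNA through a high-mobility-group box and bend it. SoxC genes have no introns, and their proteins carry a strong activation domain at the C-terminus; they keep progenitor cells of many embryonic tissues alive. SoxD genes are long and rich in introns and in alternative starts. Their proteins lack an activation domain, pair with each other through a coiled coil, and support or oppose other SOX factors, as SOX5 and SOX6 do beside SOX9 in cartilage. SOX4 is found in somatic cells of the fetal gonad of both sexes. FOXL2 is the forkhead factor that maintains the identity of the supporting cells of the ovary.

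The 6 genes had 22 FOXL2 peaks in all, 9 at the SoxC genes and 13 at the SoxD genes. Each of the 6 had at least 1 peak in its window, as did 76.3% of protein-coding genes, and each had at least 1 inside the gene, against 36.2% of genes. The SoxC peaks were spread over 618 kb of searched sequence (14.6 per Mb) and the SoxD peaks over 2166 kb (6.0 per Mb). The whole list held 4.25 peaks per Mb of gene-bearing chromosome. That span ran from the first to the last coding gene of each chromosome, gene deserts included, whereas the windows were set around genes. The densities are therefore not like for like, and nothing can be read from their difference. The genes themselves made up 17.7 kb of the searched sequence in SoxC and 1566 kb in SoxD, with flanks of equal size. Of the SoxC peaks, 3 lay inside the genes, 4 upstream and 2 downstream. Of the SoxD peaks, 10 lay inside, 2 upstream and 1 downstream. These splits each rest on a single gene. Without Sox12 the SoxC genes had 4 peaks, 2 inside and 2 outside, and without Sox5 the SoxD genes had 6, 3 inside and 3 outside.

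**Figure D1:**
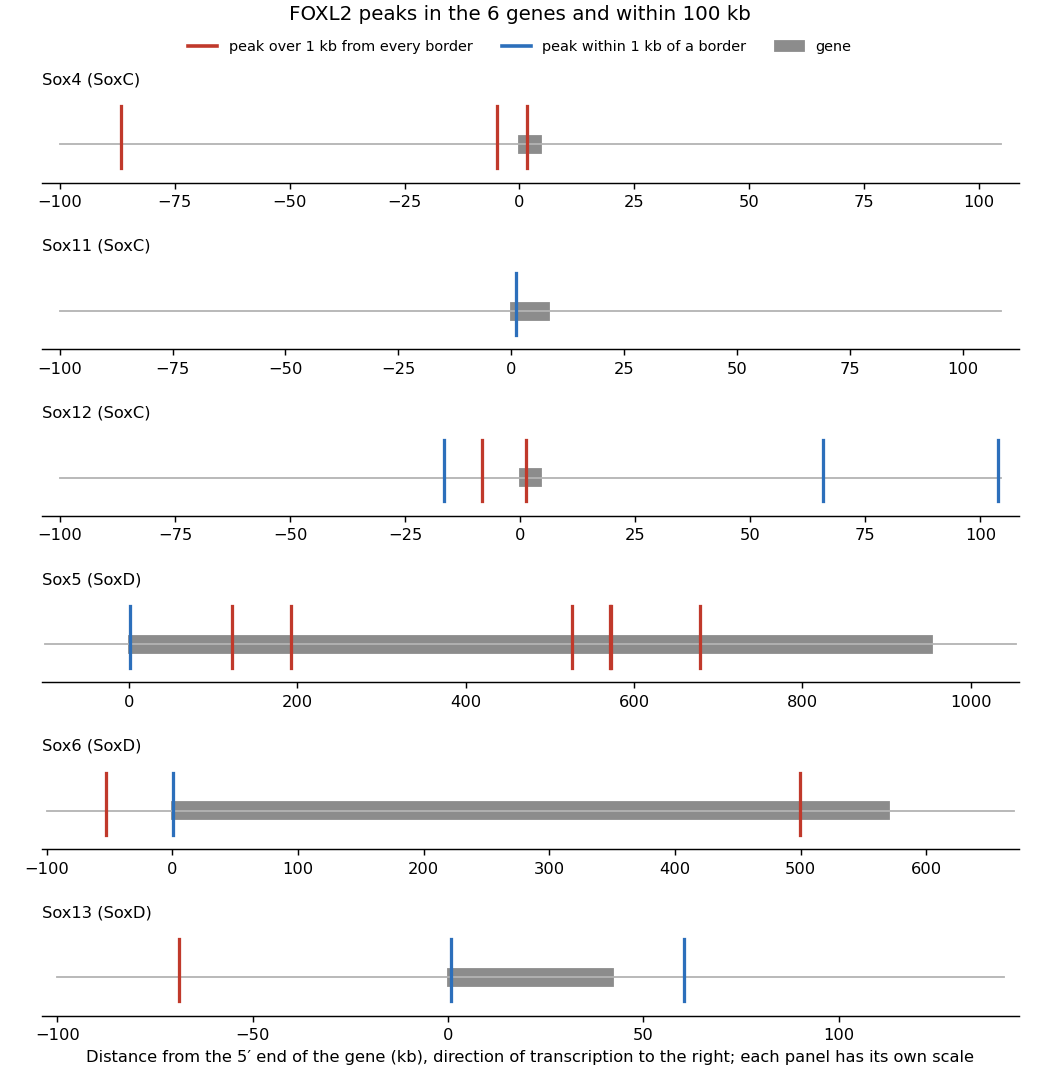
Positions of FOXL2 peaks (vertical lines) in kb from the 5′ end of each gene, with the direction of transcription to the right, the gene as a grey bar and 100 kb of flank on either side; each panel has its own scale. Each gene has a peak inside it and within 2 kb of its 5′ end. The Sox5 line near 572 kb is 2 peaks 942 bp apart.

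All 6 genes are transcribed from the minus strand, so the 5′ end is the border with the higher coordinate. A peak lay just downstream of that end in every one of them. In the SoxC genes this peak was 928 bp (Sox11), 1299 bp (Sox12) and 1680 bp (Sox4) inside the gene. In the SoxD genes it was 443 bp (Sox6), 471 bp (Sox5) and 659 bp (Sox13) inside. Measured from the annotated borders the 2 subfamilies did not overlap, with 3 genes each and no test. Measured from each gene's own nearest listed start they did: the Sox6 peak lay 1589 bp away, on the upstream side, between Sox12 and Sox4, and the nearest listed Sox5 start was 834710 bp from the Sox5 peak. A strand was known for 17492 protein-coding genes, of which 30.5% had a peak in their first 2 kb. In these 5341 genes the first peak lay at a median of 263 bp, with the middle 50% between 146 and 479 bp. Sox5 and Sox6 lay within that middle range, Sox13 lay beyond it, and the SoxC genes lay in the thin tail. Only 1.76% of the genes with such a peak had it as deep as Sox4, 4.46% as deep as Sox12 and 8.67% as deep as Sox11. The shares for Sox13, Sox5 and Sox6 were 15.5%, 25.5% and 28.0%. The genes were picked for peaks away from gene ends, and the peaks inside Sox4 and Sox12 are of that kind. Nothing can therefore be read from how rare their depth is.

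**Figure D2:**
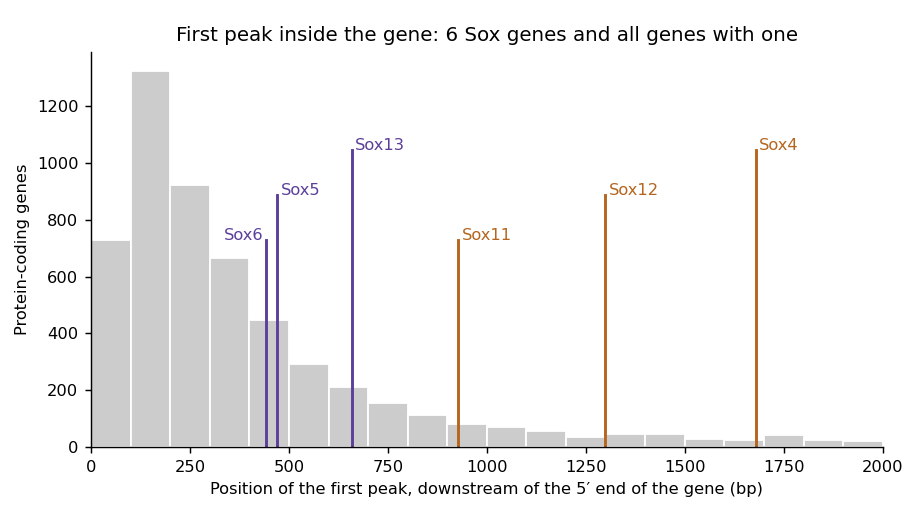
Number of protein-coding genes (grey bars, 100 bp intervals) by the position of their first FOXL2 peak in bp downstream of the 5′ end, for the 5341 genes with a peak in the first 2 kb; vertical lines mark the 6 Sox genes, whose height has no meaning. From the annotated borders the SoxD genes lie between 443 and 659 bp and the SoxC genes between 928 and 1680 bp. From each gene's own nearest listed start the subfamilies overlap, as the Sox6 peak lies 1589 bp away.

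A peak was called away from gene ends when its centre lay over 1 kb from every protein-coding border. Of the 22 peaks, 14 did so, which is 63.6%. In the whole list the share was 36.6%, but nothing can be read from the difference, since the genes were picked for such peaks. The count was 5 of 9 in SoxC (55.6%, exact binomial 95% interval 21.2 to 86.3%) and 9 of 13 in SoxD (69.2%, interval 38.6 to 90.9%). The intervals cover counting error only, treat peaks as independent, and overlap between the subfamilies. Such a peak was present at 5 of the 6 genes, against 42.4% of protein-coding genes, and inside 4 of the 6, against 9.75%. Sox11 had none: its single peak lay 928 bp from the border, just inside the limit, and goes against the reason for which the genes were picked. Just beyond the limit lay the peaks inside Sox12 (1299 bp) and Sox4 (1680 bp).

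Distance from borders separated the subfamilies more than number did, but for peaks inside a gene it is bounded by gene length. The SoxC genes were 4.44 to 8.45 kb long and the SoxD genes 42.2 to 954 kb. The part of gene length in the difference was not tested. The median distance from a peak to the nearest protein-coding border was 1.30 kb in SoxC (range 0.301 to 86.8 kb) and 70.8 kb in SoxD (range 0.443 to 427 kb). The median of the whole list was 0.452 kb. Counting only the peaks away from borders, the medians were 4.79 kb and 192 kb. In SoxD 6 peaks lay over 100 kb from any border, all of them inside Sox5, and in SoxC none did. Without Sox5 the SoxD median fell to 6.22 kb, and with the borders of noncoding genes included it was 1.73 kb against 0.928 kb in SoxC. Both settings left a much smaller gap between the subfamilies.

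**Figure D3:**
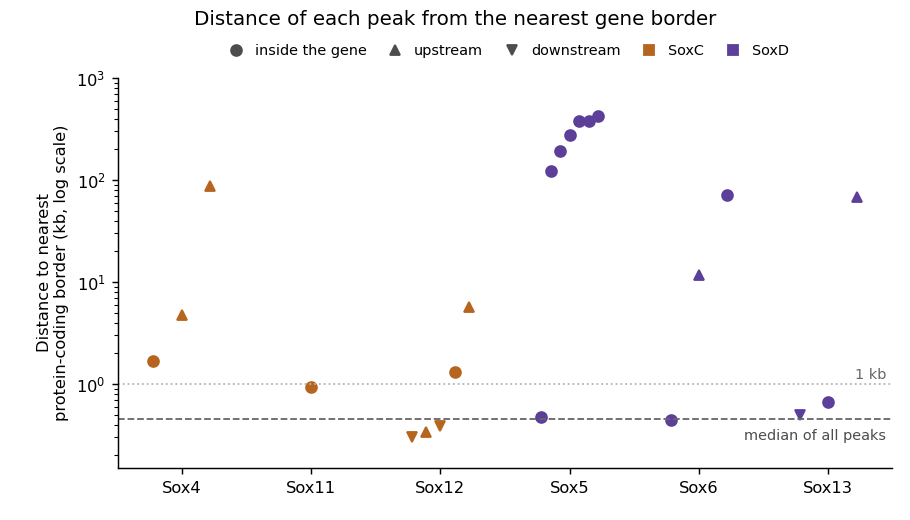
Distance from each of the 22 peaks to the nearest protein-coding border (kb, log scale) by gene; circles are peaks inside the gene, upward triangles upstream and downward triangles downstream, and the dashed line is the median of the whole list, 0.452 kb. The 6 internal Sox5 peaks above 100 kb stand apart from all SoxC peaks.

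Neighbouring peaks in the same window lay a median of 23.8 kb apart in SoxC (6 spacings, 6.47 to 82.0 kb) and 69.4 kb apart in SoxD (10 spacings, 0.942 to 499 kb). The median spacing of the whole list was 78.4 kb. Only spacings within a window count, so they cannot exceed about the window's length, which was 204 to 208 kb for a SoxC gene and up to 1154 kb for Sox5. The next peaks of Sox11 drop out for this reason, and the order of the subfamilies is partly fixed by it. Spacings under 10 kb numbered 3 of 6 in SoxC and 1 of 10 in SoxD, against 11.1% in the list. Close spacing in SoxC was limited to Sox4 and Sox12, as Sox11 had a single peak. The closest spacing at Sox12, 8.45 kb, ended at a border peak of the neighbour Zcchc3. The spacings of 38.1 and 64.5 kb there involved border peaks of the neighbours Rbck1 and Tbc1d20. Apart from a close pair in Sox5, the SoxD spacings ran from 45.0 to 499 kb and overlapped the SoxC range.

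Sox4, the SoxC gene on chromosome 13 from 28948919 to 28953699, encodes a factor needed in many embryonic organs. It had 3 peaks, none of them within 1 kb of a coding border. The first lay inside the gene, 1680 bp from the 5′ end and 3.10 kb from the 3′ end, at chr13:28951870-28952169. The second lay 4.79 kb upstream at chr13:28958342-28958641, within the long noncoding RNA gene Gm46405, whose span also covers Sox4. The third lay 86.8 kb upstream at chr13:29040326-29040625, only 139 bp from the border of another noncoding RNA gene, A330102I10Rik. Sox4 is the only coding gene of its window, and all 3 peaks were nearest to it among coding genes. Just outside the window another peak lay 105.5 kb upstream. At least as many peaks away from borders as at Sox4 were seen in 4.84% of protein-coding genes, but Sox4 was picked for such peaks. At least as many peaks of any kind in the window were seen in 41.8%.

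Sox11, on chromosome 12 from 27334268 to 27342718, had the single peak at chr12:27341641-27341940 and no other within 100 kb. SOX11 acts beside SOX4 in nerve and mesenchyme progenitors. The next peaks lay 273 kb downstream, in the gene desert, and 1293 kb upstream, at the border of the ribosomal protein gene Rps7. Its window held the fewest peaks of the 6.

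Sox12, on chromosome 2 from 152393611 to 152398046, had 5 peaks in a gene-rich stretch. The peak inside lay at chr2:152396598-152396897, 1299 bp from the 5′ end. A second lay 8.21 kb upstream at chr2:152406105-152406404, between Sox12 and Zcchc3 and 5.70 kb from the border of the latter. The other 3 were border peaks of neighbours. They belonged to Zcchc3, which encodes a zinc finger protein binding nucleic acids (340 bp), Rbck1, which encodes a subunit of the linear ubiquitin ligase complex (389 bp), and Tbc1d20, which encodes a GTPase activator for RAB1 (301 bp). The last of these lay 99.5 kb from Sox12, just inside the window. Only 1 of the 5 peaks was nearest to Sox12 itself.

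The promoters of the SoxC genes are shown because each gene's own peak lies downstream of them. The lines give the 250 bases before the annotated start, from RefSeq on GRCm38.p6, 5′ to 3′ on the minus strand; capitals mark a forkhead motif. None of the 3 windows overlapped a peak.
Sox4, chr13:28953700-28953949: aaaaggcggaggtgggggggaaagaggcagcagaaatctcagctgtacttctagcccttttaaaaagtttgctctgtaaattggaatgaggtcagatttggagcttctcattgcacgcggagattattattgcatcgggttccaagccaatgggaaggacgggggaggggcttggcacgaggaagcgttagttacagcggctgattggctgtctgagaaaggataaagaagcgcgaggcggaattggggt
Sox11, chr12:27342719-27342968: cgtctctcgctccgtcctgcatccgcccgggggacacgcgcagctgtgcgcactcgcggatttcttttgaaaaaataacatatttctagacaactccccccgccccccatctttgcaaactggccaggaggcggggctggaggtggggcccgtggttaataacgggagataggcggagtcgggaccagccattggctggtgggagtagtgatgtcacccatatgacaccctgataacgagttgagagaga
Sox12, chr2:152398047-152398296: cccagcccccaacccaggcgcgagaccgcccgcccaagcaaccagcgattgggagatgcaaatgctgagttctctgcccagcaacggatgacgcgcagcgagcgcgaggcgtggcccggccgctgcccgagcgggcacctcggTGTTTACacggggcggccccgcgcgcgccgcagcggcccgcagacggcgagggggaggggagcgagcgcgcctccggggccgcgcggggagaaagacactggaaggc

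Short motifs were searched on both strands in windows from 250 bases before to 50 bases after each listed start. These were the forkhead motif TGTTTAC, its variants TGTTTGC and TGTTTAT, which share its first 5 letters, and the SOX motifs ACAAT and ACAAAG. Of all 32851 windows, 3.65%, 5.07%, 4.60%, 31.0% and 18.7% held them in that order. The Sox12 window held TGTTTAC with its first base 107 bases before the start, although the Sox12 peak lay 1299 bp downstream of that start. The Sox4 and Sox11 windows held none of the 5. In all windows overlapping a FOXL2 peak, TGTTTAC was present in 3.61%, and in those without overlap in 3.66%. The shares were 2.70% and 5.53% for TGTTTGC and 2.34% and 5.04% for TGTTTAT. For ACAAT they were 16.5% and 33.9%, and for ACAAAG 10.8% and 20.3%. The median share of G and C was 64% in overlapping windows and 52.7% in all windows, and its part in these values was not tested. A match is only a run of letters, and the sequence under the internal peaks was not used here.

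Sox5, on chromosome 6 from 143828425 to 144782287, is 954 kb long with 28 listed transcripts. It had 7 peaks, all inside the gene, and none in either flank of 100 kb. The peak at the 5′ end lay at chr6:144781667-144781966. Going downstream, the others lay 123, 192, 527, 572, 573 and 678 kb from the 5′ end, which is 12.9 to 71.1% of the way along the gene. A stretch of 335 kb between the peaks at 192 and 527 kb had none, and neither did the last 276 kb of the gene. The peaks at 572 and 573 kb formed the closest pair at the 6 genes. They lay at chr6:144210172-144210471 and chr6:144209230-144209529, 942 bp apart, and 789 and 1731 bp from the start of the noncoding RNA gene Gm38531, which is read from the opposite strand within Sox5. Spacings under 1 kb made up 5.27% of the whole list. Gm38531 brings the closer peak of the pair under the 1 kb limit when noncoding borders count.

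Length alone gives long genes more room for peaks, so Sox5 was set beside genes of like length. Like length meant a ratio of the shorter to the longer gene of at least 0.8. Of 72 other protein-coding genes of like length, 59.7% had a peak inside, the median was 1 peak, and 1 gene had as many as 7. That gene was Adgrl3, which encodes the adhesion receptor latrophilin 3 (809 kb, 7 peaks). Next came the gene models Gm38667, Gm38666 and Gm37013 with 5 each, which overlap and end at the same place, and Camta1, a gene for a calmodulin-binding transcription activator, with 4. In all the annotation 3 genes had at least 7 peaks inside, Sox5 included, and 16 had at least 6 peaks away from borders in the gene or within 100 kb. These values come from the same counts for which Sox5 was picked.

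Sox6, on chromosome 7 from 115470872 to 116040776, is 570 kb long with 51 listed transcripts, and its product pairs with SOX5. It had only 2 peaks inside. They lay 443 bp from the 5′ end, at chr7:116040184-116040483, and 499 kb downstream of it, at chr7:115541523-115541822. The 499 kb between them, 87.5% of the gene, held no peak. Of 152 other genes of like length, 59.2% had a peak inside and 25% had at least 2, so its count was not unusual for its length. Among these Nfia, a nuclear factor I gene, and Foxp1, a forkhead gene, had 4 each, and Zfp536, Fam172a and Ank3 had 3 each. The 5′ peak lay 1589 bp from the outermost of the 6 listed Sox6 starts, on its upstream side, and inside the gene only because the annotated border lies farther out.

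The third Sox6 peak lay 52.6 kb upstream at chr7:116093275-116093574, inside the coding gene 1110004F10Rik. It counts as away from borders because the nearest coding border was 11.8 kb off, yet its centre lay 44 bp from a listed start of 1110004F10Rik. The noncoding gene 1700003G18Rik, read the other way, had its border 275 bp from the centre. By listed starts this peak lies at a promoter of the neighbours, while both peaks inside Sox6 lie over 1 kb from any listed start.

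Sox13, on chromosome 1 from 133382300 to 133424459, is the shortest SoxD gene at 42.2 kb; its product is known from γδ T cells. It had 3 peaks. The peak inside the gene lay 659 bp from the border and 412 bp from the listed start, at chr1:133423651-133423950, and the remaining 41.5 kb of the gene had none. A peak 18.3 kb downstream lay 499 bp inside the border of Etnk2, an ethanolamine kinase gene. The third, at chr1:133493061-133493360, lay 68.8 kb upstream and was nearest to Sox13 among coding genes. Of 2183 genes of like length, 47.0% had at least 1 peak inside, as Sox13 did.

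**Figure D4:**
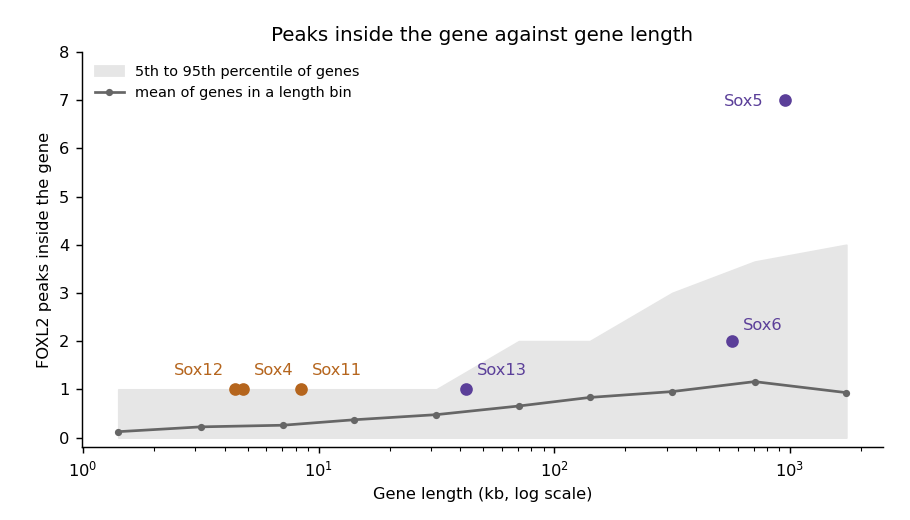
FOXL2 peaks inside each of the 6 genes (points) against gene length (kb, log scale), over the mean (line) and the 5th to 95th percentile (band) of protein-coding genes in 10 length bins. Sox5, with 7 peaks, lies above the band and Sox6, with 2, lies within it.

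For the short SoxC genes the same comparison gave a peak inside in 22.5% of 1612 genes of the length of Sox4, in 22.6% of 1536 genes like Sox12 and in 26.5% of 2057 genes like Sox11. A peak inside and over 1 kb from every border was present in 3.16% of the genes like Sox4 and 2.86% of those like Sox12. Both genes were chosen for such a peak.

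Outside the genes and within 100 kb, the 5 peaks away from borders all lay upstream: 2 at Sox4, 1 at Sox12, 1 at Sox6 and 1 at Sox13. Within 200 kb such peaks also lay downstream, 191 kb from Sox4 and 199.7 kb from Sox13. Further ones lay upstream, 105.5 kb from Sox4, 179 kb from Sox5 and 197 kb from Sox6. Over all genes with a strand, 21% had such a peak within 100 kb upstream and 21.5% within 100 kb downstream, so the sides were nearly equal over the whole annotation. Of the 5, the Sox6 peak is the one at the neighbour's start, and the farther Sox4 peak is the one at A330102I10Rik.

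Promoters of 2 SoxD genes and the part of the upstream Sox6 peak that a promoter window covers are shown next, since the SoxD 5′ peaks flank these starts. Each promoter is the 250 bases before the start on the minus strand, and the peak stretch is the 105 bases before the 1110004F10Rik start on the plus strand. Capitals mark a SOX motif, and the sequences come from RefSeq on GRCm38.p6.
Sox6, outermost listed start, chr7:116038745-116038994: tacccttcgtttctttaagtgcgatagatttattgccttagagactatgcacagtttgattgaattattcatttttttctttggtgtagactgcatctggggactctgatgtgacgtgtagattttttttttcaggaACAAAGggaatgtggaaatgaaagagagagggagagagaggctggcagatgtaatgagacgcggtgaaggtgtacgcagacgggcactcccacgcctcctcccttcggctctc
Sox13, chr1:133424213-133424462: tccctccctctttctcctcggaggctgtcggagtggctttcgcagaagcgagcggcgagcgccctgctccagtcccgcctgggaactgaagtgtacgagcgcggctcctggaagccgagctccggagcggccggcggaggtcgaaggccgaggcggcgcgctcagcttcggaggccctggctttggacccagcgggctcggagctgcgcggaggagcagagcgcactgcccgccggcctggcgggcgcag
Peak upstream of Sox6, chr7:116093275-116093379: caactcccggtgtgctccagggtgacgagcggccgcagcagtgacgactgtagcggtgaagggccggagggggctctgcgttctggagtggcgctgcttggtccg

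The Sox6 window held ACAAAG from 113 bases before the start, and the Sox13 window and the peak stretch held none of the 5 motifs. Base composition differed widely: the share of G and C was 73.3% in the Sox13 window and 76.7% in that of Sox12, 58.7% in Sox11 and 52% in Sox4, and 36.7 to 63.3% in the 6 windows of Sox6. Of the 11 windows listed for the 6 genes, 3 held a forkhead motif (Sox12, Sox5 and 1 of Sox6). A SOX motif was held by 7 (Sox5 and all 6 of Sox6). Over all windows, ACAAT was present in 31.0% and ACAAAG in 18.7%. Shares over all windows were counted for each motif separately, not for any forkhead or any SOX motif. The counts of 3 and 7 therefore have no matching share, and whether they are high or low cannot be told. Short motifs such as ACAAT are more frequent in AT-rich sequence, and the part of base composition in these counts was not tested. None of the 11 windows overlapped a FOXL2 peak, and 16.4% of all windows did. Nothing can be read from this, since the windows are few, 6 of them belong to Sox6, and the genes were picked for peaks away from gene ends. The listed Sox5 start lies deep inside the gene, and no window was listed at its outer 5′ end.

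The same counts were made at the other 14 Sox genes. A peak lay inside 3 of them, against all 6 SoxC and SoxD genes, and a peak inside and away from borders lay in 2, against 4 of 6. Nothing can be read from this contrast, since the 6 were picked for such peaks and the 14 were not. Length differed too: the longest of the 14 was Sox30 at 38.9 kb, against 954 kb for Sox5 and 570 kb for Sox6. Within 10 kb, 6 of 14 had a peak and 4 of 14 had one away from borders, against 49.6% and 13.7% of protein-coding genes. The genes with a peak inside were Sox2, the pluripotency and neural factor (857 bp from the border), Sox17, which directs endoderm and vessel formation (1185 bp), and Sox30, a gene of male germ cells (2 peaks, the nearer at 1036 bp). Sox1, a neural gene, had its nearest peak 3.80 kb outside. The peaks nearest to Sox18 (8.88 kb) and Sox15 (5.94 kb) were border peaks of Tcea2 and Mpdu1.

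Among the SoxE genes, which include Sox9 of the Sertoli lineage, no member had a peak within 10 kb. The nearest lay 31.4 kb from Sox9, 45.6 kb from Sox10 and 132 kb from Sox8. Sox21 (52.9 kb) and Sox7 (83.3 kb) had their nearest peak in the outer window, while Sox3 (343 kb), Sox14 (305 kb), Sox8 and the Y-linked Sry had none within 100 kb. For Sry a lack of binding was fixed in advance, because XX gonads carry no Y chromosome, yet Sry is counted among the 14. The list still holds a peak on chromosome Y, 88071 kb from Sry, and its origin was not examined. Within 100 kb, 10 of the 14 genes had a peak and 8 of the 14 had one away from borders, against 6 and 5 of the 6 SoxC and SoxD genes. Over all protein-coding genes the shares were 76.3% and 42.4%. Counted by peak, the 14 genes had 29 within 100 kb, of which 10 lay away from borders, compared with 14 of 22 at the 6 SoxC and SoxD genes. Sox15 alone had 10 of the 29, in a gene-dense region, and 9 of these were border peaks.

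**Figure D5:**
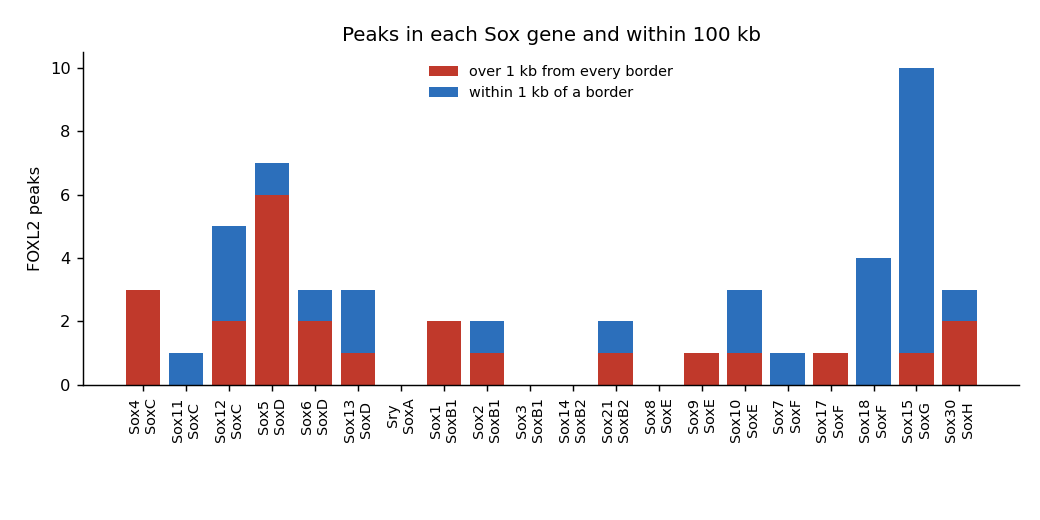
FOXL2 peaks in each of the 20 Sox genes and within 100 kb (bars), split by their place over 1 kb from all coding borders (red) and peaks within 1 kb of a border (blue). Sox5 has the most red peaks, 6, and Sox15 the most peaks, 10, of which 1 is red.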

How the data were processed

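FOXL2 ChIP and input chromatin were sequenced from pools of mouse fetal ovaries. The authors' deposited values are other than counts: where each peak starts and ends in bp, as 1 list for both ChIP samples, without scores. Per the submitters' processing notes, Bowtie 1.2, Picard 1.110, bedtools 2.24.0, HOMER 4.9 and build mm10 were used, with roles and thresholds not given in the sources used here. How pools and inputs were combined therefore sets every count in an unknown way. The 11435 peaks on chromosomes 1 to 19, X and Y were analysed by their centres in 1-based coordinates, with Python 3.11.15 and pandas 2.3.3. Genes came from RefSeq on GRCm38.p6, the assembly of mm10; strand came from a RefSeq promoter table that covers 17492 coding genes, and exons were not used. Members, lists and comparisons were chosen with earlier results of these data known. Named neighbours are the coding genes nearest to each peak; for Sox5 and Sox6 the 5 genes of like length with the most internal peaks were added, and all other Sox genes were listed. No p-value was computed, because the genes were chosen on this list. Counting functions were tested on simulated data. Alternatives changed windows, borders, peak edges, merging, length limits and the genes included.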

Additional observations from a re-analysis of the deposited data

How the results depend on the processing

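No paired analysis was possible because the only file is 1 peak list for both ChIP samples, with no value per replicate. For the same reason no replicate could be left out and no stricter threshold applied. A value was taken as moved when it changed by over 1.5 times. The SoxC count of 9 peaks became 5 in a 10 kb window, 5 with peaks nearest to or inside the member alone, and 4 without Sox12; the SoxD count of 13 became 6 without Sox5. Leaving out genes for the measures that follow was chosen after seeing the data. The 5 SoxC peaks away from borders became 3, 2 and 1 with limits of 2, 5 and 10 kb, 2 without Sox4 and 3 without Sox12, whereas the 9 of SoxD stayed 9 at each of these limits and became 3 without Sox5. The SoxC median distance of 1.30 kb became 8.21 kb from the members' own borders, 0.658 kb without Sox4 and 3.24 kb without Sox12. The SoxD median of 70.8 kb became 1.73 kb with genes of all kinds, 13.4 kb from listed starts, 158 and 123 kb in windows of 10 and 50 kb, 6.22 kb without Sox5, and 158 kb without Sox6 or without Sox13. It exceeded the SoxC median under each of these settings. The SoxC spacing of 23.8 kb became 7.99, 8.45 and 38.1 kb in windows of 10, 50 and 200 kb, 9.51 kb for peaks away from borders alone and 44.2 kb without Sox12. The SoxD spacing of 69.4 kb became 105.2 kb in a 10 kb window or inside genes alone and 111 kb in a 200 kb window. It exceeded the SoxC spacing in each setting with a value for both, and in all of them the SoxC windows are shorter. The spacing inside SoxC genes has no value, with 1 peak each. The share of genes of like length with as many peaks as Sox5 was 1.39%, and 0.820% with lengths of 0.67 to 1.5 times. Fewer peaks enter each narrower setting, and medians then rest on few values. Depth is unknown, so missing peaks set no limit on binding.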

Other observations

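The stretch between the neighbouring coding genes on either side differed widely among the 6 genes. Sox11 lay in a stretch of 1958 kb between Cmpk2 and Dcdc2c that held 2 peaks (1.02 per Mb), and Sox4 in one of 1040 kb between Prl5a1 and Cdkal1 with 5 (4.81 per Mb). The stretch of Sox12 was 35.3 kb and held 2 peaks (56.6 per Mb). Sox5 had 8 peaks in 1785 kb (4.48 per Mb), Sox6 had 3 in 1231 kb (2.44 per Mb) and Sox13 had 2 in 224 kb (8.95 per Mb). Set against 4.25 per Mb in the whole list, the long stretch around Sox11 lay below it, and that around Sox4, with 5 peaks, lay close to it. In the Sox4 stretch 2 peaks fell outside the 100 kb window, 105.5 kb upstream and 191 kb downstream of the gene. These stretches were looked at after the data were examined, and none of the differences was tested.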
